A study of Mus musculus with 12 samples.

Results

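The Hox genes of the tibialis anterior, a fast-twitch muscle of the lower hindlimb, were followed in control and *Smyd1* CKO mice. Members were all genes whose symbol is Hox, a cluster letter from a to d and a number, which gave 39 of the 23923 genes in the files: 11 in cluster A, 10 in cluster B, 9 in cluster C and 9 in cluster D. The study sequenced RNA from the muscle of 12 mice aged 6 weeks of the mixed strain C57BL6/J;129S1/SvImJ, 6 per group and 1 library per mouse. Controls were Myf6 cre/+; Smyd1 flox/+ and CKOs were Myf6 cre/+; Smyd1 flox/-, so all 12 mice carried the Cre allele and 1 floxed allele, and CKOs carried a germline null allele in every cell. The study states that experiments after its first histology used male tissue, and that its mice also carried a Cre-dependent yellow fluorescent reporter at *Rosa26*. Cre is driven from *Myf6*, a myogenic factor gene, and acts in skeletal myocytes. Recombination in the other cell types of the muscle was not measured in these libraries.

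Hox genes encode transcription factors that bind DNA through a homeodomain. The clusters arose by duplication, and genes at the same place in different clusters form a paralog group, numbered along the cluster. Genes with low group numbers act toward the head and those with high numbers toward the tail and the end of the limb. In the embryo, groups 9 to 13 pattern the limb from shoulder or hip to digits, and HoxC genes of high number are used in the hindlimb rather than the forelimb. In adult limbs, fibroblasts, tendon cells and muscle cells retain part of this positional code. The labels hold 1 muscle and no forelimb sample, so no value here tests whether a level is particular to the hindlimb.

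The comparison turned mainly on *Hoxc10*, the most abundant member, and on *Hoxa4*, the member with the largest positive difference, and each is shown beside a choice of its paralogs, which leaves out others that are as close or closer in sequence. All 39 members matched the GENCODE mouse release 21 annotation (GRCm38) by symbol, and a homeobox of 180 bases was found in the transcripts of all 39. The last 60 bases of the homeobox, which encode the end of the homeodomain with its DNA-recognition helix, are shown because reads that mapped to several places were discarded before the values were made. In this first set, capitals mark bases that differ from *Hoxc10*, which lies in exon 2 on the plus strand at chr15:102970968-102971027.
Hoxc10: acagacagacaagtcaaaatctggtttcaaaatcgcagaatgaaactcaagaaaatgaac
Hoxa10: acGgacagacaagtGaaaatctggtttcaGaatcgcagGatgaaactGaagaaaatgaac
Hoxd10: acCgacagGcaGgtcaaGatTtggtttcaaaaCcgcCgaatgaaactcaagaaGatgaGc

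*Hoxa10* (minus strand, chr6:52232554-52232613) differed from *Hoxc10* at 5 of these 60 bases and *Hoxd10* (plus strand, chr2:74694261-74694320) at 9. Over the whole homeobox the identity with *Hoxc10* was 80.6% for *Hoxa10* and 82.8% for *Hoxd10*. For each gene only the longest coding transcript with a homeobox was compared. Among these, the longest exact stretch that *Hoxc10* shared with another Hox gene was 23 bases, with *Hoxb9*. Other transcripts of the genes, which can share exons with a neighbour, were not compared. In the second set, capitals mark bases that differ from *Hoxa4*, which lies in exon 2 on the minus strand at chr6:52190483-52190542.
Hoxa4: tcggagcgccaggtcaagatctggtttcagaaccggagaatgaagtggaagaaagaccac
Hoxc4: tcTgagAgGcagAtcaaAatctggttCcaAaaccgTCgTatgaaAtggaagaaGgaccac

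*Hoxc4* (exon 4, plus strand, chr15:103035783-103035842) differed from *Hoxa4* at 12 of the 60 bases, and the identity over the homeobox was 78.9%. Among the same compared transcripts, the longest stretch that *Hoxa4* shared with another Hox gene was 24 bases, with *Hoxa2*. The read length was not given in the sources used here, so how many reads of these stretches were discarded was not tested.

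Levels are FPKM, sequenced fragments scaled to transcript length and to the mapped reads of the library, which the authors computed per gene and mouse. The relative depth of the libraries ranged from 0.984 to 1.77 of that of control 1, with medians of 1.19 in controls and 1.24 in CKOs. The comparison was fitted with limma to log2(FPKM + 0.1) for the 12695 genes that reached 0.1 FPKM in 6 or more mice. Log2 fold changes are CKO minus control on that scale, which understates changes of low genes, and a gene was called when its Benjamini-Hochberg adjusted P was below 0.05. Over all genes the median log2 fold change was 0.18 and 77.9% of genes were positive. Median-ratio scaling moved that median to 0.04 and quantile normalization to -0.003, and at an unadjusted P below 0.05 the split of 2300 higher and 224 lower genes became 1058 and 741 with median-ratio scaling.

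*Smyd1*, the targeted gene, was at 47.1, 33.4, 41.1, 32.9, 33.8 and 36.1 FPKM in control mice 1 to 6 and at 38.0, 32.1, 32.5, 27.8, 39.9 and 34.5 FPKM in CKO mice 1 to 6. The groups overlapped, and the means were 37.4 ± 5.64 and 34.1 ± 4.36 FPKM (SD, n = 6), with a log2 fold change of -0.13 (SE 0.12, limma, adjusted P = 0.545). With median-ratio scaling it was -0.28 (limma, adjusted P = 0.11). The part of the gene that the flox allele deletes was not given in the sources used here, and the floxed and null alleles can leave transcripts, so this gene-level value does not check the genotype labels. By western blot, the study could not detect SMYD1 protein in the tibialis anterior of CKO mice.

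Control tibialis anterior held Hox RNA mainly from clusters C and A and from paralog groups 10 and 9. Of the 39 genes, 5 averaged at least 1 FPKM in controls, 16 lay from 0.1 to 1 FPKM, 11 were above 0 but below 0.1 FPKM, and 7 were listed at 0 in all 12 mice. The last were *Hoxb1*, *Hoxb13*, *Hoxc12*, *Hoxc13*, *Hoxd1*, *Hoxd12* and *Hoxd13*. *Hoxd11* was above 0 in 2 control mice only. A total of 20 members were above 0 in every mouse.

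**Figure D1:**
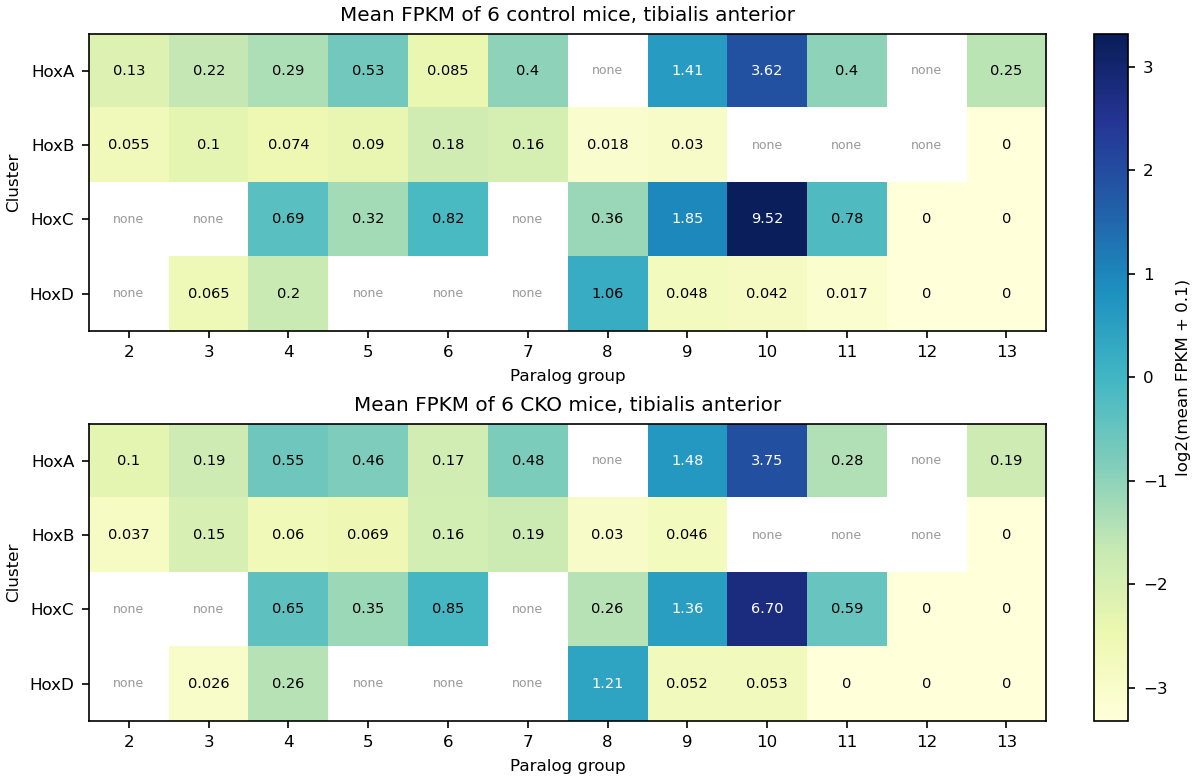
Mean FPKM of the Hox genes of paralog groups 2 to 13 in 6 control mice (top) and 6 CKO mice (bottom), with clusters as rows and paralog groups as columns; the colour is log2(mean FPKM + 0.1), each cell prints the mean FPKM, and "none" marks places with no gene in the files. The darkest cells are *Hoxc10* and *Hoxa10* in both groups, and cells of group 12, and of group 13 other than *Hoxa13*, hold 0.

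*Hoxc10*, a group 10 gene of cluster C, was the highest Hox gene in every mouse. In controls it was at 7.40, 9.005, 8.86, 11.2, 10.2 and 10.4 FPKM in mice 1 to 6, which averaged 9.52 ± 1.38 (SD, n = 6). This mean was above that of 94.0% of all genes in the files. The values were 2.63 times those of the next member, *Hoxa10*, by the ratio of means, and *Hoxc10* was above *Hoxa10* in 6 of 6 controls with no overlap of the ranges.

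*Hoxa10*, its paralog in cluster A, was at 4.54, 2.08, 5.65, 3.67, 3.46 and 2.34 FPKM in control mice 1 to 6 (mean 3.62 ± 1.34). *Hoxc9*, the group 9 gene next to *Hoxc10*, was at 2.099, 2.78, 1.58, 1.34, 1.86 and 1.47 FPKM (mean 1.85 ± 0.531). *Hoxa9*, which also belongs to group 9, was at 1.52, 1.35, 1.95, 1.06, 1.41 and 1.14 FPKM (mean 1.41 ± 0.317). The ranges of these neighbours overlapped, although *Hoxa10* was above *Hoxc9*, and *Hoxc9* above *Hoxa9*, in 5 of 6 controls.

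*Hoxd8*, from the middle of cluster D, completed the 5 members above 1 FPKM. It was at 1.06, 1.04, 1.23, 1.13, 1.09 and 0.824 FPKM in control mice 1 to 6 (mean 1.06 ± 0.135), the narrowest of the 5 relative to its mean. *Hoxd8* was the only cluster D gene above 1 FPKM, since *Hoxd4* averaged 0.203 FPKM and the other 7 were below 0.1 FPKM or at 0. Beyond *Hoxc10* and *Hoxa10*, no pair of neighbours in the order of the 22 highest control means had ranges apart from each other.

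**Figure D2:**
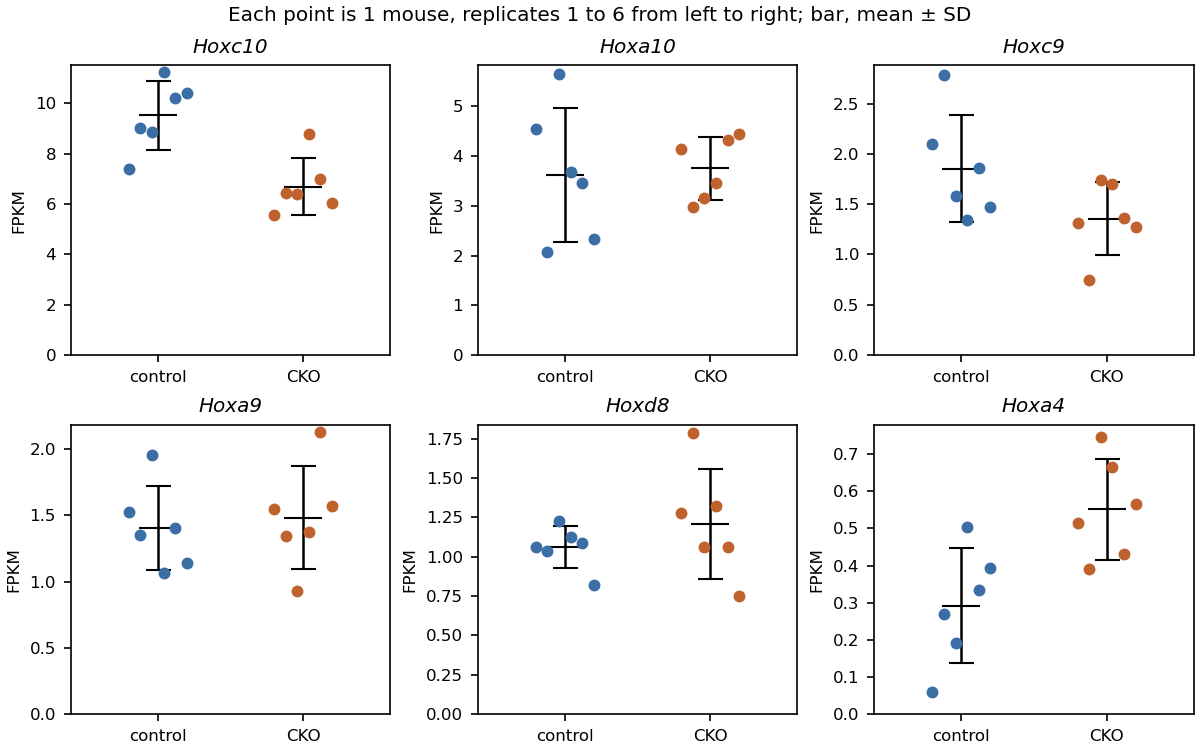
FPKM of the 5 highest Hox genes in controls and of *Hoxa4*, with 1 point per mouse, replicates 1 to 6 from left to right, and the mean ± SD of 6 mice; each vertical axis starts at 0. For *Hoxc10*, 5 of the 6 controls lie above every CKO; for *Hoxa4*, 4 of the 6 CKOs lie above every control; for *Hoxa10*, *Hoxa9* and *Hoxd8* the groups share most of their range.

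The other members of cluster C were lower. *Hoxc6*, *Hoxc11* and *Hoxc4* averaged 0.818 ± 0.277, 0.779 ± 0.0741 and 0.695 ± 0.267 FPKM in controls (SD, n = 6). *Hoxc8* and *Hoxc5* averaged 0.357 and 0.320 FPKM, so that the level within the cluster did not follow the gene order and peaked at group 10. GENCODE places *Hoxc5* over the stretch that holds *Hoxc6*, *Hoxc8*, *Hoxc9* and *Hoxc10* on the same strand, because 1 of its transcripts starts near *Hoxc10*, and reads of shared exons could be split between these genes.

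In cluster A, the genes below *Hoxa10* and *Hoxa9* were led by *Hoxa5* at 0.527 FPKM and *Hoxa7* at 0.405 FPKM. *Hoxa11*, a gene of the middle limb segment in the embryo, was at 0.397 ± 0.137 FPKM, and *Hoxa13*, which marks the hand and foot, at 0.250 ± 0.0697 FPKM. *Hoxa13* was the only group 13 gene above 0, at 26 fragments over the 6 controls and 20 over the 6 CKOs. *Hoxa11* overlaps the antisense transcript *Hoxa11os*, whose reads cannot be told from those of *Hoxa11* unless strand was used in counting, which was not stated.

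Cluster B contributed least. Its highest members in controls were *Hoxb6* at 0.176 ± 0.140 and *Hoxb7* at 0.157 ± 0.101 FPKM, and 3 of its 10 genes, *Hoxb3*, *Hoxb6* and *Hoxb7*, were high enough to be tested. The cluster sum in controls was 0.703 ± 0.209 FPKM, or 2.96% of the summed Hox FPKM.

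Summed over its genes, cluster C ranged from 12.9 to 15.9 FPKM in controls (median 14.4) and from 9.19 to 12.8 FPKM in CKOs (median 10.7). As deposited the groups did not overlap, but control 1, the lowest control, was at 12.88 FPKM and CKO 4, the highest CKO, at 12.79 FPKM. Median-ratio scaling divides these values by 1.11 and 1.02, which puts control 1 below CKO 4. On that scale the groups therefore overlapped. Cluster A ranged from 5.34 to 10.2 FPKM in controls and from 6.66 to 9.10 FPKM in CKOs, and cluster D from 1.255 to 1.69 and from 1.12 to 2.38 FPKM. As a mean share of the summed Hox FPKM of a mouse, cluster C held 60.5% ± 6.03 in controls and 51.6% ± 3.72 in CKOs (SD, n = 6). The share of cluster A was 30.5% ± 5.56 and 37.0% ± 3.55, that of cluster D 6.02% and 7.82%, and that of cluster B 2.96% and 3.60%. Shares are parts of a whole, so a lower share of cluster C raises the others. In FPKM, cluster A averaged 7.35 ± 1.82 in controls and 7.69 ± 0.915 in CKOs. With median-ratio scaling its difference, CKO minus control, was -0.38 FPKM. Sums over members carry no test here, because the members were chosen with earlier results known.

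**Figure D3:**
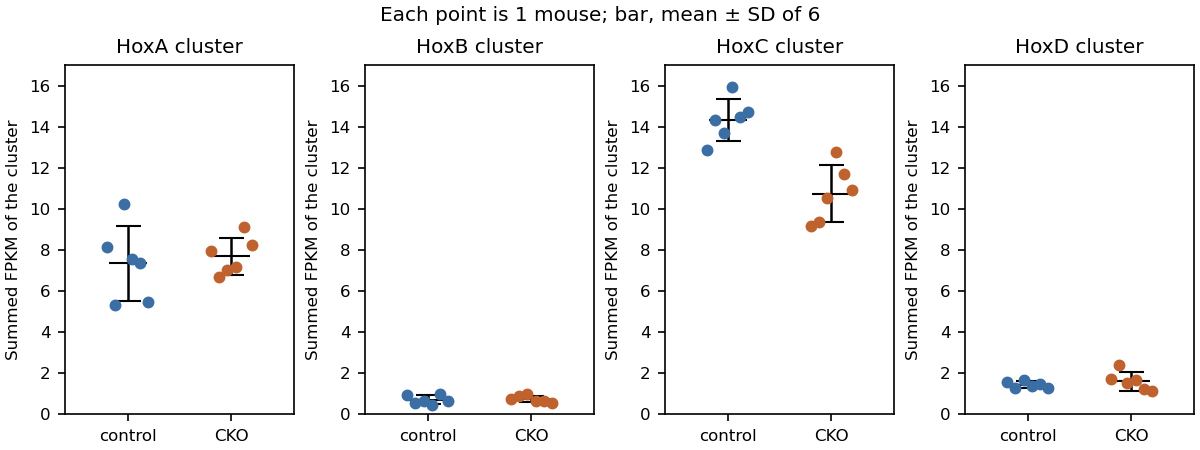
Summed FPKM of the genes of each Hox cluster, on a common axis from 0, with 1 point per mouse and the mean ± SD of 6 control and 6 CKO mice. As deposited, cluster C lies from 12.9 to 15.9 FPKM in controls and from 9.19 to 12.8 FPKM in CKOs, while the groups overlap in clusters A, B and D.

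Most of the difference in cluster C was *Hoxc10* itself. Without *Hoxc10* the cluster summed to 4.82 ± 0.508 FPKM in controls and 4.06 ± 0.725 FPKM in CKOs, and the groups overlapped. With median-ratio scaling the same sum was 5.07 ± 0.575 and 3.82 ± 0.622 FPKM, and the groups did not overlap. All Hox genes together summed to 23.8 ± 1.83 FPKM in controls and 20.8 ± 1.40 FPKM in CKOs, and without *Hoxc10* to 14.3 ± 2.15 and 14.1 ± 1.02 FPKM (SD, n = 6). With median-ratio scaling the sum of all members but *Hoxc10* was 14.9 ± 1.29 and 13.3 ± 0.645 FPKM.

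By paralog group, group 10 held 55.3% ± 3.24 of the summed Hox FPKM in controls and 50.4% ± 2.58 in CKOs. Group 9 held 14.1% in controls and 14.1% in CKOs. Group 4 went from 5.28% ± 1.24 to 7.38% ± 1.65 and group 11 from 4.999% ± 0.479 to 4.17% ± 1.31. These shares also depend on the other groups. In summed FPKM, group 4 averaged 1.26 ± 0.331 in controls and 1.52 ± 0.307 in CKOs, and group 11 1.19 ± 0.173 and 0.865 ± 0.269. No other group reached 8% of the sum in either group, and group 12 was at 0.

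No Hox gene was called in CKO against control, and 2 passed an unadjusted P of 0.05. Of the 39 members, 22 passed the filter and were tested, and 17 were too low. At an unadjusted limma P below 0.05, 1 of 22 was lower in CKO, *Hoxc10*, where 1.76% of all genes tested were lower, and 1 was higher, *Hoxa4*, where 18.1% were higher. At an adjusted P below 0.05, 0 of 22 were lower and 0 were higher, beside 0.268% and 2.02% of all genes. The FPKM of controls and CKOs did not overlap for 0 of the 22, beside 2.42% of all genes tested.

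*Hoxc10* was at 5.55, 6.44, 6.40, 8.78, 6.98 and 6.02 FPKM in CKO mice 1 to 6, beside 7.40 to 11.2 FPKM in controls. All controls but control 1 lay above every CKO, and CKO 4 lay above control 1. The means of 9.52 ± 1.38 and 6.70 ± 1.13 FPKM (SD, n = 6) gave a log2 fold change of -0.50 (SE 0.13, 95% confidence interval from -0.77 to -0.23), with a limma P of 0.00121 and an adjusted P of 0.0516. An exact two-sided permutation test of the 12 values over 924 assignments gave P = 0.00433. Among single genes it was run only for *Hoxc10* and *Hoxa4*, the members past an unadjusted limma P of 0.05. It used the same values and was not adjusted for the number of members tested, so it is no separate support. In bulk muscle, fewer cells that express a gene and less of its RNA per cell cannot be told apart.

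The depth behind *Hoxc10* was the greatest among members whose fragments could be counted. FPKM moved in whole steps that allowed the number of fragments to be read back for 26 of the 31 members above 0 in at least 3 mice. *Hoxc10* had 153, 209, 231, 252, 269 and 332 fragments in control mice 1 to 6 and 203, 144, 172, 281, 142 and 147 in CKO mice 1 to 6. A count of 153 fragments has a 95% Poisson interval from 129.7 to 179.3, and these intervals cover counting error only. The spread of *Hoxc10* between mice of a group was 5.28 times the variance that counting gives, the highest ratio of the 26, where the spread includes differences between mice, libraries and scaling. At a given relative spread this ratio rises with the number of fragments. *Hoxc10* had 2535 over the 12 mice, and the next countable member, *Hoxc9*, had 449. The ratio therefore does not rank the members by spread relative to their means.

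The direction of *Hoxc10* was negative under all 23 alternative analyses, with log2 fold changes from -0.66 to -0.45. These are not 23 separate checks. Another filter, no trend, the replicate block and the permutation test leave the estimate as it was. The fits without a mouse share most of their values. The adjusted P of *Hoxc10* in the 22 alternatives that give one ranged from 0.00785 to 0.137. It was below 0.05 in 5 of them, among them the fits without control 1 (0.0114) and without CKO 4 (0.0252), the mice whose values overlapped. Leaving out any other mouse gave an adjusted P from 0.0563 to 0.137.

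*Hoxc9*, *Hoxc11* and *Hoxc8*, the neighbours of *Hoxc10*, had negative estimates without passing the test. *Hoxc9* was at 1.31, 0.746, 1.74, 1.70, 1.37 and 1.28 FPKM in CKO mice 1 to 6 (mean 1.36 ± 0.360), with a log2 fold change of -0.43 (SE 0.21, limma, adjusted P = 0.265). *Hoxc11* ranged from 0.708 to 0.882 FPKM in controls (median 0.766) and from 0.311 to 0.935 FPKM in CKOs (median 0.557), with a log2 fold change of -0.41 (SE 0.20, adjusted P = 0.272). *Hoxc8* ranged from 0.273 to 0.522 FPKM in controls and from 0.0722 to 0.3605 FPKM in CKOs, with a log2 fold change of -0.38 (SE 0.25, adjusted P = 0.408). The CKO range was the wider for *Hoxc11* and overlapped the controls for all 3 genes. With median-ratio scaling *Hoxc9* and *Hoxc11* had log2 fold changes of -0.57 and -0.54 and passed an unadjusted P of 0.05, at adjusted P of 0.222 and 0.245.

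Across cluster C, 6 of the 7 genes tested had a negative log2 fold change and the median was -0.38, beside a median of 0.18 over all genes. *Hoxc4* at -0.06, *Hoxc5* at 0.07 and *Hoxc6* at -0.05, the genes of groups 4 to 6, had estimates near 0. With median-ratio scaling and with quantile normalization 7 of 7 were negative, and with sample weights 5 of 7. The signs of all genes moved with the setting as well. The share of all genes that was positive was 77.9% in the main fit and 56.7% with median-ratio scaling. It was 49.5% with quantile normalization and 80.7% with sample weights.

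**Figure D4:**
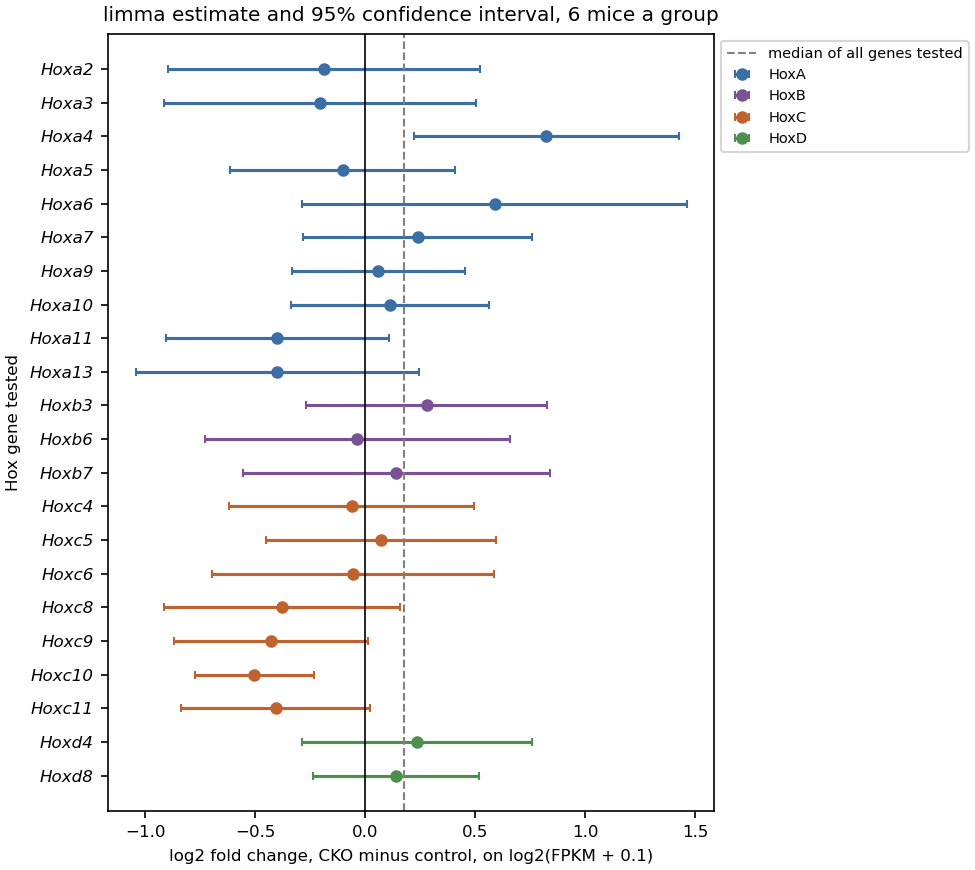
Log2 fold change of CKO minus control on log2(FPKM + 0.1) for the 22 Hox genes tested, ordered by cluster and paralog group, with 95% confidence intervals from limma over 6 mice a group; the solid line is 0 and the dashed line is the median of all 12695 genes (0.18). Only the intervals of *Hoxc10* (below) and *Hoxa4* (above) leave out 0, and *Hoxc8*, *Hoxc9*, *Hoxc10* and *Hoxc11* lie together on the negative side.

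*Hoxa4*, an anterior gene of cluster A, had the opposite sign. It was at 0.0605, 0.270, 0.192, 0.502, 0.333 and 0.393 FPKM in control mice 1 to 6 and at 0.514, 0.392, 0.745, 0.665, 0.431 and 0.564 FPKM in CKO mice 1 to 6. The groups overlapped, with 4 CKOs above every control. Means of 0.292 ± 0.155 and 0.552 ± 0.136 FPKM (SD, n = 6) gave a log2 fold change of 0.82 (SE 0.28, 95% confidence interval from 0.22 to 1.43), with a limma P of 0.0107, an adjusted P of 0.133 and an exact permutation P of 0.0108.

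These *Hoxa4* values rest on 36 fragments over the 6 controls and 73 over the 6 CKOs, from 1 fragment in control 1 to 17 in CKO 4. The antisense transcript *Hoxaas3*, which overlaps *Hoxa4*, averaged 0.0555 ± 0.0636 FPKM in controls, with 3 of 6 at 0, and 0.171 ± 0.173 FPKM in CKOs, with 1 of 6 at 0. GENCODE also places *Hoxa3* and *Gm28308* over *Hoxa4* on the same strand. Whether reads of *Hoxaas3* or of these genes entered the *Hoxa4* value was not tested. With quantile normalization the *Hoxa4* log2 fold change was 0.60 (adjusted P = 0.429) and no longer passed an unadjusted P of 0.05.

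The abundant members of clusters A and D did not differ beyond the spread between mice. *Hoxa10* was at 4.15, 2.97, 3.16, 3.47, 4.33 and 4.44 FPKM in CKO mice 1 to 6 (mean 3.75 ± 0.632), with a log2 fold change of 0.11 (SE 0.21, interval from -0.34 to 0.56, adjusted P = 0.788). *Hoxa9* was at 1.55, 1.35, 0.931, 1.38, 2.12 and 1.57 FPKM (mean 1.48 ± 0.389), with a log2 fold change of 0.06 (SE 0.18, interval from -0.33 to 0.45, adjusted P = 0.881). *Hoxd8* was at 1.28, 1.79, 1.06, 1.32, 1.07 and 0.748 FPKM (mean 1.21 ± 0.349), with a log2 fold change of 0.14 (SE 0.18, interval from -0.24 to 0.52, adjusted P = 0.679). The signs of *Hoxa10* and *Hoxa9* turned negative with median-ratio scaling, and those of all 3 with quantile normalization.

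In the rest of cluster A, *Hoxa11* had a log2 fold change of -0.40 (SE 0.24, limma, adjusted P = 0.359), from 0.397 ± 0.137 to 0.275 ± 0.109 FPKM. *Hoxa13* had one of -0.40 (SE 0.30, adjusted P = 0.463). *Hoxa6*, at 5 fragments over the controls and 11 over the CKOs, had the second largest positive estimate, 0.59, with an interval from -0.28 to 1.46. Of the 10 cluster A genes tested, 5 were negative and 5 positive.

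The 3 genes of cluster B that were tested had log2 fold changes from -0.04 for *Hoxb6* to 0.28 for *Hoxb3*, each with an interval that held 0. Over all 22 Hox genes tested, 12 were negative and 10 positive, with a median of -0.04. Relative to the median of all genes, 17 of the 22 lay below and 5 above. The least covered members limit what could be seen, as 14 of the 26 countable ones had fewer than 50 fragments over the 12 mice.

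Members below the filter are given by value only. *Hoxd3* was between 0.0251 and 0.145 FPKM in controls and between 0 and 0.0541 FPKM in CKOs, on 16 and 7 fragments. *Hoxb9* had 6 fragments over the controls and 10 over the CKOs, and *Hoxd10* had 6 and 9. With so few fragments these genes were not tested in the main fit.

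Transcription factors that set limb type and pattern were taken as a further list of 22 genes. Of the 10 that were tested, 0 were called in either direction, with 0 at an unadjusted limma P below 0.05, and their median log2 fold change was 0.06. *Tbx4*, which is used in the hindlimb, ranged from 0.139 to 0.385 FPKM in controls (median 0.235) and from 0.0635 to 0.409 FPKM in CKOs (median 0.310). The groups overlapped widely, with a log2 fold change of 0.09 (SE 0.29, adjusted P = 0.883).

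*Pitx1*, the factor that acts before *Tbx4* in the hindlimb bud, was listed at 0 in 5 controls and at 0.0491 FPKM, or 2 fragments, in control 6. In CKO mice 1 to 6 it was at 0.0641, 0.0349, 0.0291, 0.0244, 0 and 0.0640 FPKM, on 3, 1, 1, 1, 0 and 2 fragments. *Tbx5*, the forelimb counterpart of *Tbx4*, had 1 fragment in each of control mice 1, 3 and 4 and in CKO 1, with its highest value at 0.0235 FPKM, and was at 0 in the other 8 mice. The adult muscle therefore showed *Tbx4* in all 12 mice and *Pitx1* and *Tbx5* at or near 0. *Pitx1* and *Tbx5* lay below the filter and were not tested in the main fit. With no filter, *Pitx1* was among 9 of 62 genes of the further lists that were higher at an unadjusted limma P below 0.05. In that fit 2546 of 17922 genes were higher, and the *Pitx1* values rest on the few fragments given above.

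The highest members of that list were *Tbx15* at 42.8 ± 8.37 FPKM in controls and 46.8 ± 7.59 in CKOs, and *Prrx1*, a gene of limb mesenchyme, at 9.24 ± 1.004 and 9.37 ± 0.995 FPKM. *Hand2* and *Shh*, which mark the posterior limb bud, were listed at 0 in all 12 mice.

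Hox proteins bind DNA together with TALE homeodomain cofactors of the Meis, Pbx and Pknox families. Of 9 such genes 7 were tested, and 1 was called, *Pbx2*, where 2.02% of all genes tested were called higher and 0.268% lower. At an unadjusted limma P below 0.05, 1 of 7 was higher, beside 18.1% of all genes, and 0 were lower, beside 1.76%. *Pbx2* was at 0.892, 0.824, 1.26, 1.005, 1.35 and 1.33 FPKM in control mice 1 to 6 and at 1.92, 1.71, 2.16, 1.79, 1.61 and 1.82 FPKM in CKO mice 1 to 6. *Pbx2* rose from 1.11 ± 0.232 to 1.84 ± 0.190 FPKM with no overlap, which 2.42% of all genes tested showed. Its log2 fold change was 0.70 (SE 0.15, limma, adjusted P = 0.0231). Its adjusted P was 0.0922 with median-ratio scaling and 0.153 with quantile normalization, and it lay from 0.0532 to 0.066 without control 2, control 4, CKO 1, CKO 3 or CKO 6, each left out in turn. The other 6 had log2 fold changes from -0.12 for *Pbx3* to 0.58 for *Meis3*.

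**Figure D5:**
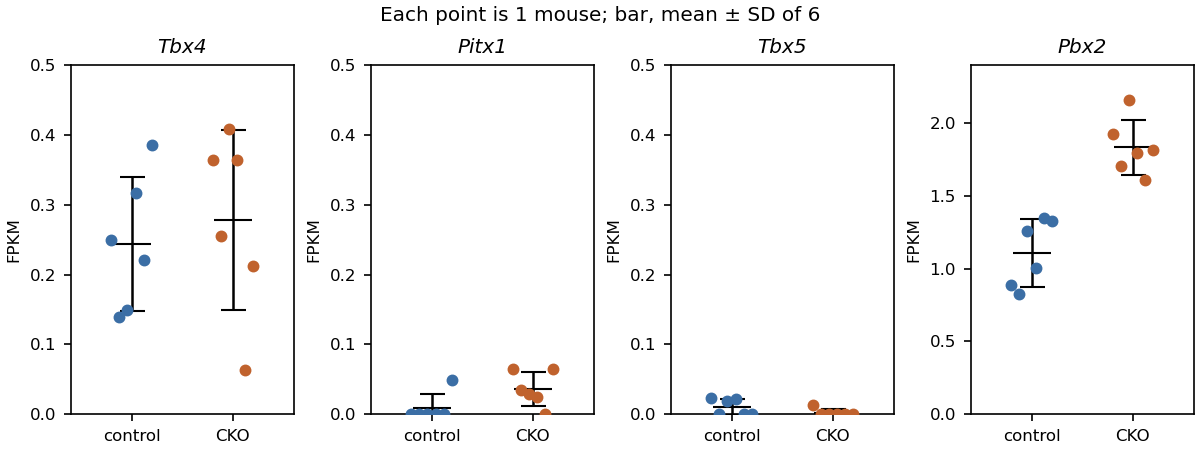
FPKM of *Tbx4*, *Pitx1*, *Tbx5* and the cofactor gene *Pbx2*, with 1 point per mouse and the mean ± SD of 6 control and 6 CKO mice; the *Pbx2* axis runs higher than the other axes. *Pbx2* lies from 0.824 to 1.35 FPKM in controls and from 1.61 to 2.16 FPKM in CKOs, *Tbx4* overlaps, and *Pitx1* and *Tbx5* stay below 0.07 FPKM.

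Chromatin regulators that keep Hox clusters silent or active were examined in the same way. Of 16 Polycomb group genes tested, which act as repressors, 0 were called, 2 were higher at an unadjusted limma P below 0.05, *Phc3* (log2 fold change 0.34, adjusted P = 0.127) and *Suz12* (0.32, adjusted P = 0.227), and 0 were lower, beside 18.1% of all genes higher and 1.76% lower at that threshold. All 16 had positive estimates, beside 77.9% of all genes, and the median was 0.21, beside 0.18 over all genes. Of 10 Trithorax genes and histone H3K27 demethylases tested, 0 were called, 3 were higher unadjusted, *Kdm6a* (0.32, adjusted P = 0.159), *Ash2l* (0.30, adjusted P = 0.192) and *Psip1* (0.31, adjusted P = 0.23), and 0 were lower, with a median of 0.21. With median-ratio scaling and with quantile normalization none of these 5 kept an unadjusted P below 0.05.

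Noncoding transcripts of the Hox clusters were mostly below detection. *Hotair*, a long noncoding RNA from between *Hoxc11* and *Hoxc12*, ranged from 0.351 to 0.883 FPKM in controls (mean 0.585 ± 0.182) and from 0.161 to 0.677 FPKM in CKOs (mean 0.404 ± 0.180). The groups overlapped, with a log2 fold change of -0.48 (SE 0.26, limma, adjusted P = 0.309). *Hoxa11os* had a log2 fold change of 0.36 (SE 0.43, adjusted P = 0.66). Of the 12 transcripts on this list, 6 were listed at 0 in every mouse: *Haglr* and the miRNA precursors *Mir10a*, *Mir10b*, *Mir196a-1*, *Mir196a-2* and *Mir615*.

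Hox RNA in muscle can come from several cell types, so markers of these were set beside the Hox values. Fast fiber markers summed to 21154 to 35153 FPKM in controls and 23094 to 29120 FPKM in CKOs, far above the slow fiber markers in each mouse, as the labelled muscle would have. Of the 8 fast fiber markers 7 had negative estimates, with *Acta1*, skeletal actin, lower at an unadjusted limma P below 0.05 (log2 fold change -0.33, adjusted P = 0.218) and *Myh4*, the fastest myosin heavy chain, higher (0.77, adjusted P = 0.0599). All 6 tendon markers had negative estimates, 2 of them at an unadjusted limma P below 0.05, and their sum ranged from 18.7 to 60.7 FPKM in controls and from 16.3 to 35.3 FPKM in CKOs. Of 9 fibroblast markers 8 were positive and 2 passed an unadjusted P of 0.05, with sums from 230.7 to 879 and from 308 to 520 FPKM. All 6 slow fiber markers were higher at an unadjusted P below 0.05, with sums from 8.62 to 29.8 and from 14.5 to 265.6 FPKM, and 3 of 4 satellite cell markers were higher, with sums from 1.44 to 1.99 and from 2.17 to 3.21 FPKM. At this threshold 18.1% of all genes were higher and 1.76% lower, and 77.9% of all genes had positive estimates. No marker on these lists was called. The part of these cell types in the *Hoxc10* and *Hoxa4* values was not tested.

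Endothelial markers summed to 33.9 to 46.2 FPKM in controls and 35.7 to 51.5 FPKM in CKOs with 0 of 6 past an unadjusted limma P of 0.05, macrophage markers to 3.55 to 12.5 and 5.07 to 7.71 FPKM with 0 of 5. At this threshold pericyte and smooth muscle markers had 1 of 4 higher, Schwann cell markers 2 of 5, and adipocyte markers 1 of 2 tested. Of all genes tested, 18.1% were higher at that P. Schwann cell markers summed to 3.62 to 8.85 FPKM in controls and 6.43 to 12.5 FPKM in CKOs. Their estimates were positive for 5 of 5, beside 77.9% of all genes. Adipocyte markers summed to 0.437 to 1.06 and 0.639 to 2.08 FPKM, with a median log2 fold change of 0.62, beside 0.18 over all genes. Keratinocyte and cartilage or bone markers summed to at most 0.225 and 0.463 FPKM in any mouse.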

How the data were processed

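RNA sequencing was done on tibialis anterior from 6 control and 6 *Smyd1* CKO mice. The authors depleted ribosomal RNA, trimmed adapters, aligned reads to the mouse genome (mm9, TopHat2 2.0.10 with bowtie2, per the labels and methods), discarded reads with several locations, and computed the deposited FPKM with Cufflinks 2.1.1. The annotation used and whether strand was counted were not given in the sources used here. Each file held 23950 rows, of which 27 with a date as symbol were left out. The authors' own calls came from counts, not used here, at an unspecified kind of P below 0.05, so unadjusted and adjusted counts are both given.

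The FPKM were tested as deposited with limma 3.58.1 (R 4.3.3; lmFit, eBayes with trend, two-sided) on log2(FPKM + 0.1) for genes that reached 0.1 FPKM in 6 or more of the 12 mice, with Benjamini-Hochberg adjustment over 12695 genes. All P-values in the text not said to be from a permutation test are limma's. Depth in reads is not in the files. Relative depth, and whole fragments for 66.3% of the genes tested, came from the steps of FPKM (tolerance 0.03 fragments, at most 1500 fragments). Fragment counts for *Hoxa9*, *Hoxa10*, *Hoxa11*, *Hoxb3* and *Hoxd8* could not be recovered. An FPKM of 0 can be a failed estimate, since 5 genes were at 0 in 1 mouse and at least 10 FPKM in another. Positions and sequences are from GENCODE mouse release 21 (GRCm38), another build than that of the files. The code was tested on simulated data. A few items are not reported here.

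Any Hox gene could be named. Values for every mouse were given for the 5 highest in controls, those past an unadjusted P of 0.05, and *Smyd1*, *Pitx1*, *Tbx4* and *Tbx5*, or as range and median. From each further list, genes past an unadjusted P of 0.05 were named, and any others were chosen after their values were seen. Members and lists were chosen with earlier results of these data known. Alternatives were pseudocounts of 1 and 0.01, quantile normalization, no filter or one at 1 FPKM, median-ratio scaling, no trend, sample weights, the replicate number as a block, and each mouse left out. Added after the data were seen were limma voom on the recovered fragments and the exact permutation test. The latter was run for *Hoxc10*, *Hoxa4* and the ratio of *Hoxc10* to *Hoxa10* only, with no adjustment.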

Additional observations from a re-analysis of the deposited data

Results flagged for a closer look

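In 60 groups of 6 mice examined (22 Hox genes, *Smyd1*, *Tbx4*, *Pbx2*, *Hotair* and the 4 cluster sums, each in controls and CKOs), 6 had a mouse that stood apart from the others by Dixon's test at its 95% critical value, and chance flags about 1 group in 20. All 6 were high values of low genes, from 0.22 to 1.05 FPKM. In controls, *Hoxa5* was at 1.05 FPKM in control 4, where the next mouse was at 0.527, *Hoxb3* was at 0.220 in control 5, where the next was at 0.103, *Hoxb6* was at 0.440 in control 5, where the next was at 0.187, and *Hoxd4* was at 0.362 in control 1, where the next was at 0.201. In CKOs, *Hoxa11* was at 0.487 FPKM in CKO 5, where the next was at 0.280, and *Hoxb7* was at 0.472 in CKO 2, where the next was at 0.206. Without CKO 5 the log2 fold change of *Hoxa11* was -0.54 (limma, adjusted P = 0.198), and without control 4 that of *Hoxa5* was 0.09. The cause of these values was not tested.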

How the results depend on the processing

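Of 464 refits of the 22 Hox genes under the alternatives, 414 kept the direction and the side of an unadjusted P of 0.05, 19 moved past it, 1 dropped below it (*Hoxa4* with quantile normalization) and 30 changed sign. For 12 of the 22 genes no refit changed sign. Refits with another filter, no trend or the replicate block leave the estimate as it was, so they cannot change its sign. Depth limits the genes with few fragments, and no cause of a change of setting was tested.

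The count of Hox genes higher at an unadjusted P below 0.05 was 1, and 0 with a filter at 1 FPKM (5 Hox genes left), 2 with no filter, 0 with quantile normalization and 1 to 2 when a mouse was left out (2 without CKO 2, with *Hoxa6*). The count of those lower was 1, and 4 with median-ratio scaling, 5 with quantile normalization, 2 without the trend, 3 with sample weights and 1 to 3 when a mouse was left out (3 without CKO 5, and 2 without control 2, 4 or 6 or CKO 2, 3 or 4). Over all genes, those lower moved too, from 224 of 12695 to 741 of 12693 with median-ratio scaling and 837 of 12695 with quantile normalization. They numbered 215 without the trend and 318 with sample weights, of 12695 each. Those higher over all genes went from 2300 to 810 with quantile normalization, 1690 of 7938 with the filter at 1 FPKM and 2546 of 17922 with no filter. At an adjusted P below 0.05 no Hox gene was called (limma), and 1, *Hoxc10*, was lower with the filter at 1 FPKM, with sample weights, with the replicate block and without control 1 or CKO 4 (0 to 1 over the mice left out), while 0 were higher in these fits.

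Same-numbered mice showed no common pairing (correlations of their deviations of 0.16, -0.004, -0.09, 0.13, 0.08 and -0.04, with 2 of 6 mice matching their own number best). With the replicate block 2442 genes were higher and 250 lower unadjusted, and 272 and 40 adjusted, and *Hoxc10* had an adjusted P of 0.0246.

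Over all genes, 2300 higher and 224 lower at an unadjusted P became 1058 and 741 with median-ratio scaling, 810 and 837 with quantile normalization, 3704 higher with sample weights, and 1738 to 3428 higher and 196 to 320 lower when a mouse was left out. The adjusted counts of 257 and 34 became 108 and 69 with median-ratio scaling, 101 and 68 with quantile normalization, 1400 and 115 with sample weights, 88 and 18 with voom on recovered fragments, 170 higher with no filter, and 84 to 1067 and 18 to 69 when a mouse was left out (lowest without CKO 1, highest without control 1).

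Genes of the further lists that were higher unadjusted numbered 6, and 1 with median-ratio scaling, 1 with quantile normalization, 11 with sample weights and 3 to 10 when a mouse was left out. Those lower numbered 0, and 1 (*Hotair*) with median-ratio scaling, with quantile normalization and with sample weights, and 0 to 1 when a mouse was left out. The log2 fold change of *Smyd1* was -0.28 with median-ratio scaling (adjusted P = 0.11), -0.23 with quantile normalization (adjusted P = 0.186) and -0.18 to -0.06 when a mouse was left out. The difference of the summed FPKM was -3.60 in cluster C and -3.05 over all Hox genes, and -5.01 and -5.41 with median-ratio scaling.

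Signs changed, all at an unadjusted P above 0.05, with median-ratio scaling for *Hoxa9* (-0.082), *Hoxa10* (-0.034) and *Hoxc5* (-0.042), with quantile normalization for *Hoxa9* (-0.15), *Hoxa10* (-0.064), *Hoxb7* (-0.034), *Hoxc5* (-0.13) and *Hoxd8* (-0.066), and with sample weights for *Hoxc4* (0.12). When a mouse was left out, the log2 fold change ranged over 0 for *Hoxa2* (-0.41 to 0.0015), *Hoxa5* (-0.19 to 0.087), *Hoxa9* (-0.045 to 0.18), *Hoxa10* (-0.025 to 0.26), *Hoxb6* (-0.19 to 0.18), *Hoxb7* (-0.079 to 0.28), *Hoxc4* (-0.19 to 0.11), *Hoxc5* (-0.045 to 0.24) and *Hoxc6* (-0.26 to 0.056).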

Other observations

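The order of some neighbours in the Hox levels was not the same in the 2 groups, as a description with no test. *Hoxc9* was above *Hoxa9* in 5 of 6 controls and in 2 of 6 CKOs. *Hoxc5* was above *Hoxa4* in 3 of 6 controls and in 0 of 6 CKOs, and *Hoxa7* was above *Hoxa11* in 3 of 6 controls and in 6 of 6 CKOs. *Hoxc10* was above *Hoxa10* in 6 of 6 mice of each group.

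The ratio of *Hoxc10* to *Hoxa10* within a mouse, which does not depend on the scaling between libraries, was 1.63, 4.33, 1.57, 3.06, 2.95 and 4.46 in control mice 1 to 6 and 1.34, 2.17, 2.02, 2.53, 1.61 and 1.36 in CKO mice 1 to 6. The groups overlapped, with a mean log2 ratio lower in CKO by 0.63 and an exact two-sided permutation P of 0.0758. This ratio was chosen after the values were seen. The miRNA precursor *Mir196b*, which lies in the *Hoxa9* gene on the same strand, was at 1.01 FPKM in CKO 2 and at 0 in the other 11 mice. Its fragments could not be read back. FPKM is scaled to length, so a short transcript can reach such a value on few fragments. Whether reads of *Hoxa9* entered the value was not tested.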
